A study of Mus musculus with 36 samples.

Results

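The circular RNAs (circRNAs) of Nell2 were analysed in total RNA from the hippocampus and the frontal cortex. A circRNA was counted as a Nell2 circle when both of its ends lay inside the gene on the minus strand (GENCODE M21, GRCm38). Of 33261 circRNAs listed in either tissue, 29 met this rule. The gene was chosen by the reads of a single circle, the one joining exon 16 back to exon 14, which had many reads in some samples and 0 in others. Its reads and its pattern over samples are therefore given as a description, without a test.

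The samples came from adult male wild-type mice of the strain C57BL/6 (C57BL6/N in the study's methods) kept in a light-dark cycle, with no other genotype or treatment in any group. Whole hippocampus and frontal cortex were taken in the light phase (ZT1, ZT5, ZT9) and in the dark phase (ZT13, ZT17, ZT21), where ZT counts hours from lights on. With 3 replicates at each of 6 time points, there were 18 samples per tissue and 36 in all. The labels do not say whether both tissues came from the same mice. The p-values set differences against the spread between these samples, which the main fit of both tissues treats as independent. Total circular reads per sample, over all circRNAs listed, ranged from 6754 to 73252 in hippocampus samples and from 8107 to 34803 in frontal cortex samples. The lowest totals were those of hippocampus ZT13 replicate 1 and frontal cortex ZT9 replicate 3. Circles within Prox1 and Zbtb20, genes of hippocampal neurons, had 197 and 628 reads in hippocampus samples and 16 and 143 in frontal cortex samples. Circles of the cortical gene Tbr1 were near absent in both, with 0 and 3 reads.

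Nell2 encodes a secreted glycoprotein of neurons that is built of repeated domains, among them a row of EGF-like repeats. It is known as an axon guidance cue that repels commissural axons through the receptor Robo3, and as a ligand of the receptor tyrosine kinase Ros1. A circRNA arises when the end of an exon is spliced back to the start of the same or an earlier exon, and a circular read is a read across that back-splice junction. Circles without a free end resist exonucleases and are abundant in neurons. The tables list a circRNA in a sample only from 2 reads, so that a 0 may stand for a single read. Whether a junction with more reads could also go unlisted was not examined.

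Nell2 lies at chr15:95075230-95528559. Its transcript Nell2-202 has 21 exons, numbered here from the start of the transcript. The circle with the most reads spans chr15:95296159-95346887 and holds exon 14 (126 bases), exon 15 (123 bases) and exon 16 (96 bases), all of them coding. Its spliced length is 345 bases, a multiple of 3 that corresponds to 115 codons. The introns on its outer sides are 27840 bases (before exon 14) and 54481 bases (after exon 16) long. The back-splice junction of this circle is shown first, with the linear junction from exon 16 to exon 17 for comparison. Both are given with 30 bases on either side of the junction, from the GENCODE M21 transcript on the minus strand, and capitals mark the 13 bases after the junction that are the same in both.
Back-splice of exon 16 to exon 14: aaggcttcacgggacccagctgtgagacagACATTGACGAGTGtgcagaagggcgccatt
Linear junction of exon 16 to exon 17: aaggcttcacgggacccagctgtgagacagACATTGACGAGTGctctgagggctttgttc

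The whole of exon 14 (chr15:95346762-95346887) and exon 17 (chr15:95241537-95241677) is printed to show where they part, again with the shared first bases in capitals.
Exon 14: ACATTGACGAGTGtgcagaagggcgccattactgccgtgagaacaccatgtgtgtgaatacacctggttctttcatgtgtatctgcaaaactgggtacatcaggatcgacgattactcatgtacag
Exon 17: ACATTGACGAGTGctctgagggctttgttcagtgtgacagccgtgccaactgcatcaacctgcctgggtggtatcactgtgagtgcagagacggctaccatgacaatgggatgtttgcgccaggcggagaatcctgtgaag

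Exons 14 and 17 share their first 13 bases, and 19 of their first 30 positions are identical. Among all 210 pairs of exons of Nell2-202, the next most bases shared from the first base were 4, between exons 6 and 12. A window of 24 bases, with 12 on either side of the back-splice, was therefore also found in linear transcripts, namely in 4 of 141767 transcripts of the annotation, all of them Nell2. A window of 40 bases across the same back-splice was found in 0 of them. The junctions of the next most frequent circles, printed here with the bases after the junction in capitals, have no such match: the 24-base window was found in 0 transcripts for each.
Back-splice of exon 14 to exon 11 (chr15:95346762-95385156): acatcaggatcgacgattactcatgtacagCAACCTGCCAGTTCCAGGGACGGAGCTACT
Back-splice of exon 13 to exon 11 (chr15:95374728-95385156): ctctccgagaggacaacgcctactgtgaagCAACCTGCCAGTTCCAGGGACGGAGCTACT
Back-splice of exon 10 to exon 5 (chr15:95429878-95435430): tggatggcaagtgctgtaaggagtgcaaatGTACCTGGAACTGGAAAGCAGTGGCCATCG

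In the hippocampus, the exons 14 to 16 circle had 2779 reads, all in 8 of 18 samples, and was the 4th circRNA by total reads. It had 300 reads in ZT1 replicate 1, 446 in ZT1 replicate 2, 398 in ZT5 replicate 3 and 286 in ZT9 replicate 3. In the dark phase, it had 287 reads in ZT13 replicate 3, 367 in ZT17 replicate 1, 344 in ZT21 replicate 2 and 351 in ZT21 replicate 3. In each of these 8 samples it was the circRNA with the second most reads. In the other 10 samples it was listed at 0, and no sample had a count between 0 and 286.

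Where the circle was found in the hippocampus, its share of all circular reads was between 1.37% and 1.71%, with a median of 1.50%. Depth did not separate the samples: total circular reads were between 16740 and 29951 in the 8 samples with the circle and between 6754 and 73252 in the 10 without it. The sample with the most circular reads, ZT1 replicate 3, was among those at 0. At the lowest share found, 1.37%, the 10 samples at 0 would have had between 92.7 reads (ZT13 replicate 1) and 1006 reads (ZT1 replicate 3). In these samples 2 reads, the smallest count listed, would be a share of 0.00273% to 0.0296%. A further column for ZT1 replicate 3, with 14951 circular reads, listed the circle at 0, where the lowest share would have given 205 reads. Of the 2817 circRNAs in that column, 6 were absent from the first column of the sample. Its 0 is therefore not a separate observation.

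**Figure D1:**
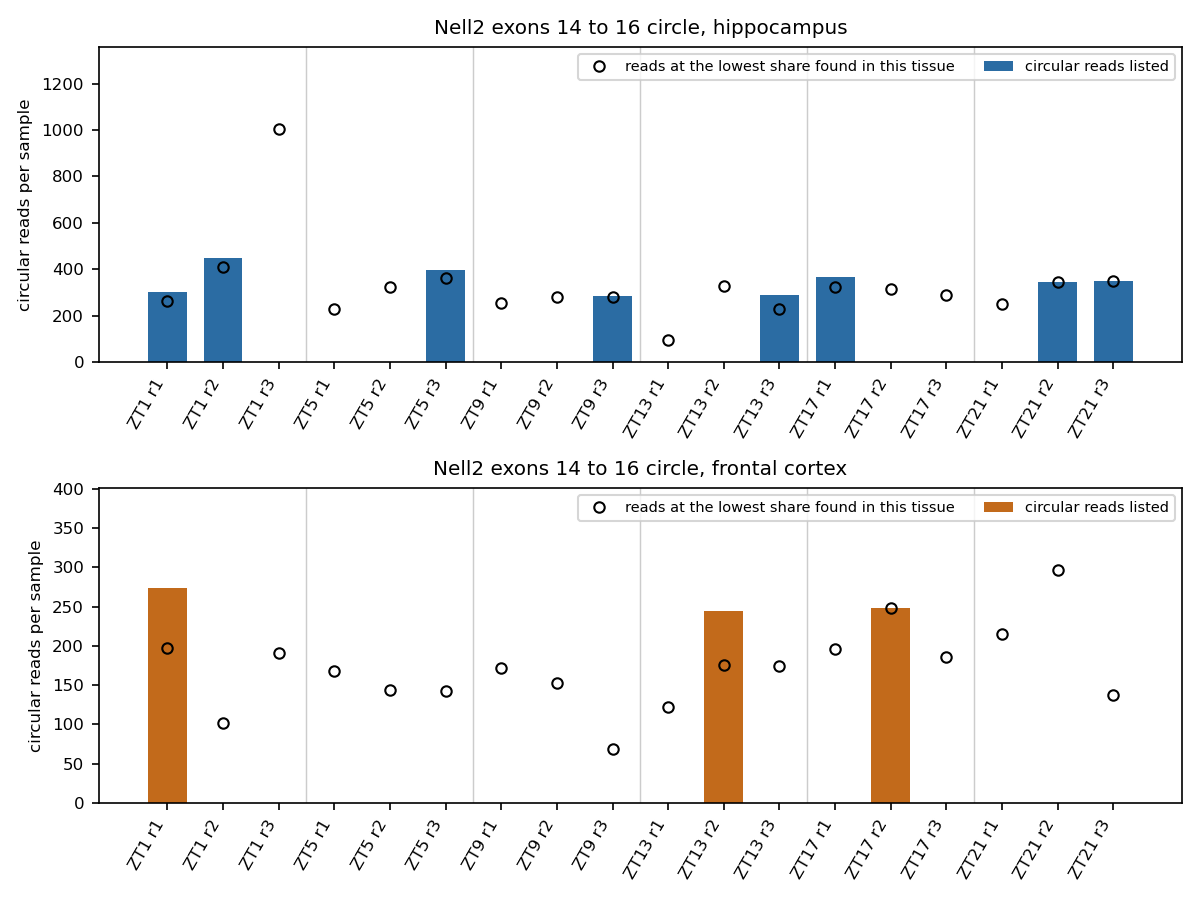
Circular reads of the Nell2 exons 14 to 16 circle in each sample (bars; r, replicate; 0 where there is no bar), by time point, in the hippocampus and the frontal cortex. Open circles give the reads that the lowest share found in that tissue would give at the sample's total circular reads. The 8 hippocampus bars lie between 286 and 446 reads, and the other 10 samples have none.

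In the frontal cortex, the same circle had 765 reads in 3 of 18 samples and was 30th by total reads. It had 273 reads in ZT1 replicate 1, 244 in ZT13 replicate 2 and 248 in ZT17 replicate 2, and 0 in the other 15 samples. Its share was between 0.853% and 1.19% where found, and it ranked 2 or 3 within these samples. In the 15 samples at 0, the lowest share would have given between 69.2 and 297 reads. As these are pieces of tissue, fewer cells with a circle and less of it per cell cannot be told apart. What sets the samples with reads apart from those at 0 was not tested.

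The samples with the exons 14 to 16 circle were spread over the day. In the hippocampus it was found in 2 of 3 replicates at ZT1 and at ZT21 and in 1 of 3 at each of ZT5, ZT9, ZT13 and ZT17, which makes 4 of 9 samples in the light phase and 4 of 9 in the dark phase. In the frontal cortex it was found in 1 of 9 light-phase samples and 2 of 9 dark-phase samples. Set side by side by time point and replicate number, 1 pair (ZT1 replicate 1) had the circle in both tissues, 7 in hippocampus alone, 2 in frontal cortex alone and 8 in neither. The labels do not tie the members of such a pair to a mouse.

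The other 28 Nell2 circles had far fewer reads. Of them, 23 were listed for the hippocampus with 566 reads in all, and 18 for the frontal cortex with 366 reads. Including the exons 14 to 16 circle, 14 circles were listed in both tissues, 10 in hippocampus alone and 5 in frontal cortex alone (48.3%, 34.5% and 17.2% of the 29). Of all circRNAs listed, 30.9%, 40.4% and 28.6% fell in the same classes. Of the 29, 22 had both ends on exon borders of Nell2-202, and the remaining 7 had 2 to 4 reads in any tissue where they were listed. The spliced length was a multiple of 3 in 12 of the 22. The highest count of any other circle in a single sample was 23. Found in at least 2 replicates of 1 time point were 10 Nell2 circles of the hippocampus and 6 of the frontal cortex.

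**Figure D2:**
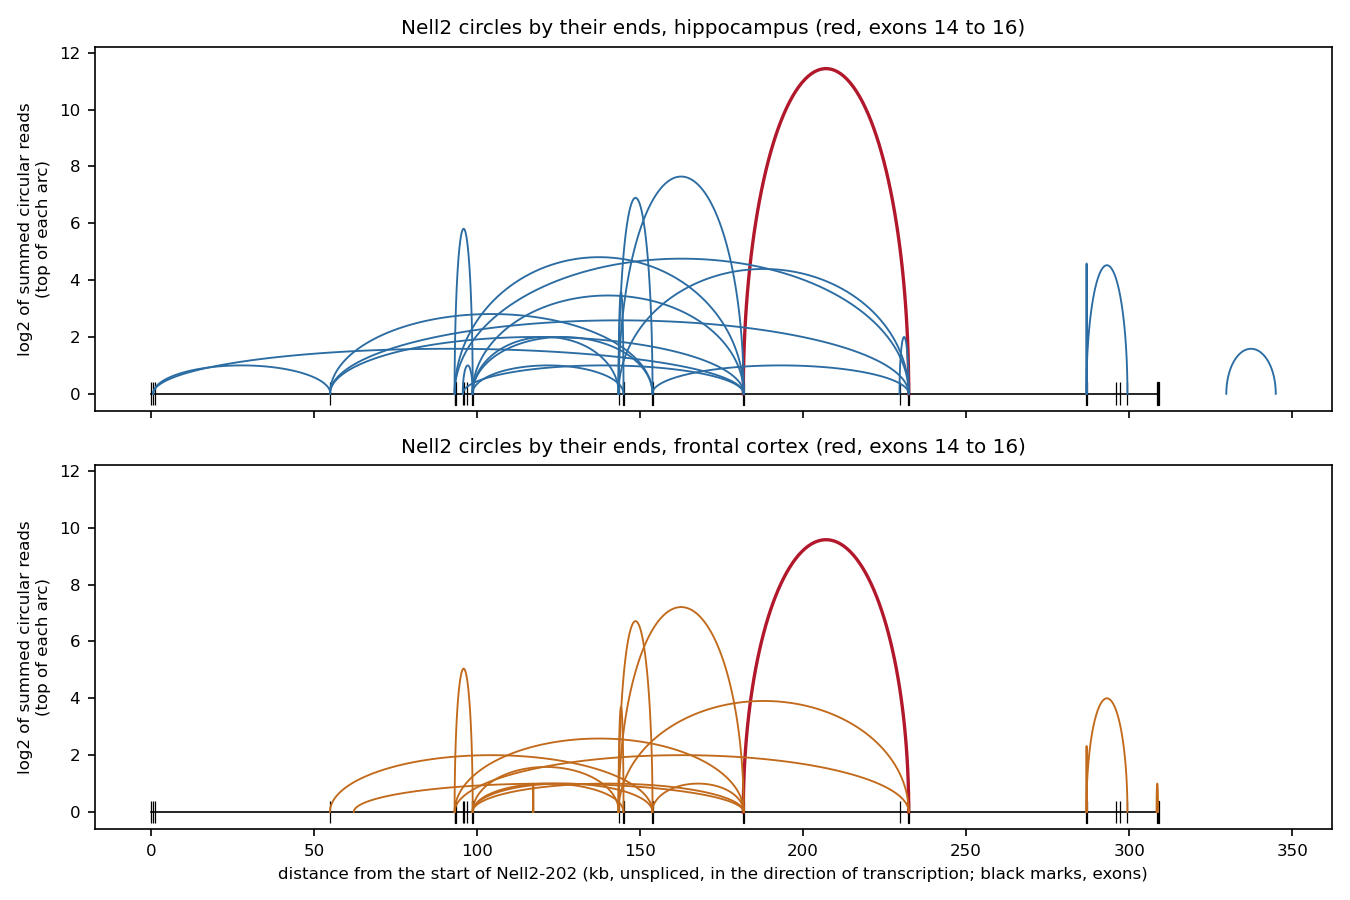
Nell2 circles drawn as arcs between their ends along the unspliced gene, as distance in kb from the start of Nell2-202 (black marks, exons), with the log2 of the summed circular reads at the top of each arc. The red arc is the exons 14 to 16 circle, with 2779 hippocampal and 765 cortical reads. The next highest arc, exons 11 to 14, has 200 and 148 reads.

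The exons 11 to 14 circle, which ends with the first exon of the exons 14 to 16 circle, was listed in all 36 samples. In the hippocampus it had 200 reads, with a lowest count of 2 (ZT13 replicate 1), a median of 11 and a highest of 23 (ZT1 replicate 3). It had 148 reads in frontal cortex samples, between 4 and 15 in each with a median of 7.5. The ranges of both tissues overlapped. Somewhat fewer reads were those of the exons 11 to 13 circle, which had 119 in 17 hippocampus samples, at most 20, and 105 in 16 frontal cortex samples, at most 13. Both of these circles start at exon 11, the exon at which 4 Nell2 circles start. The exons 5 to 10 circle had 56 reads in 14 hippocampus samples and 33 in 8 frontal cortex samples. These 8 were all at ZT9, ZT13 or ZT21, where 1 of 9 samples lacked it; this circle had too few reads for the test and was singled out after its values were seen.

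Circles with fewer reads used the same exons. The exons 5 to 14 circle had 28 hippocampal and 6 cortical reads, and the exons 10 to 14 circle 11 and 2. In all, 8 circles other than the exons 14 to 16 circle ended with exon 14. Exon 17, whose first bases are those of exon 14, formed a circle on its own, with 24 reads in 7 hippocampus samples and 5 reads in 2 frontal cortex samples. Exons 17 to 20 formed another, with 23 and 16 reads.

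Whether other circles took the place of the exons 14 to 16 circle where it had 0 reads was looked at sample by sample. No other circRNA on chromosome 15 had its start at exon 14, and 5 ended, like this circle, with exon 16. Of these 5, the exons 5 to 16 circle had 27 reads in 9 hippocampus samples and 4 in 2 frontal cortex samples. That of exons 11 to 16 had 21 reads in 9 hippocampus samples and 15 in 7 frontal cortex samples. The exons 4 to 16, 15 to 16 and 13 to 16 circles had 6, 4 and 2 reads, all in the hippocampus. Summed over these 5 circles, hippocampus samples without the exons 14 to 16 circle had between 0 and 14 reads and those with it between 0 and 7. The cortical sums were between 0 and 5 and between 0 and 2. They overlapped in both tissues and stayed far below the 92.7 to 1006 reads that the lowest share would have given in the hippocampus. Within 10 bases of either end, no circRNA was listed beyond these 5 and the circle itself.

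The summed share of all other Nell2 circles was likewise overlapping. In the hippocampus samples with the exons 14 to 16 circle, the other circles had between 18 and 41 reads (0.0978% to 0.175% of circular reads), and in those without it between 15 and 86 reads (0.104% to 0.222%). Over all 18 hippocampus samples the share was 0.137% ± 0.034 (SD). For the frontal cortex it was 0.114% ± 0.0722 (SD, 18 samples), between 0.031% and 0.146% in the 3 samples with the circle and between 0.0716% and 0.382% in the 15 without it. The highest value, 0.382%, was that of ZT9 replicate 3, the sample with the lowest total. Without that sample the frontal cortex mean was 0.0978%. Over the whole table, 0 circRNAs had the reverse pattern, with at least 20 reads in every sample that lacked the exons 14 to 16 circle and 0 in every sample that had it, in either tissue.

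**Figure D3:**
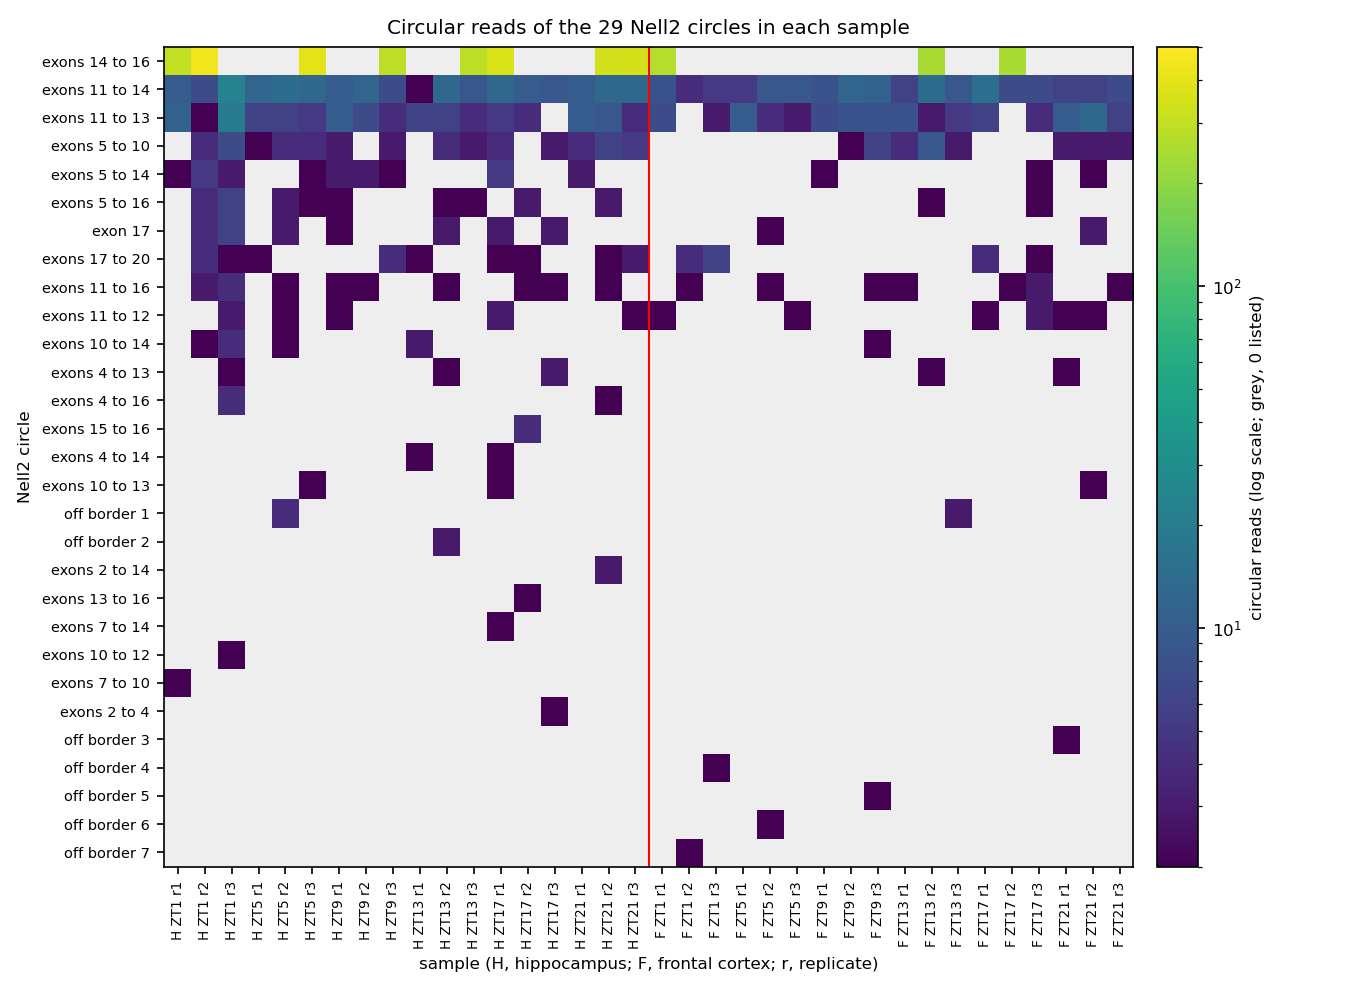
Circular reads (colour, log scale; grey, 0) of each of the 29 Nell2 circles (rows, by hippocampus reads; off border, not both ends on exon borders) in each of 36 samples (columns; H, hippocampus; F, frontal cortex; r, replicate). The top row has either 0 or at least 244 reads, and the other rows do not rise above 23 in any sample.

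The number of bases shared at the junction was then compared over all circRNAs, an analysis chosen after the values were seen. For 20710 circRNAs with both ends on exon borders of a transcript and an exon following the last one, the bases shared from the first base by the circle's first exon and that following exon were counted. The median was 0 bases, and 98.8% shared 0 to 3. At least 13 bases were shared by 22 circRNAs (0.106%) from 8 genes. Of circRNAs with at least 500 reads, 81 hippocampal and 66 cortical ones could be compared. The Nell2 circle was the 1 among them that shared 13, and the next highest number was 2. The other circRNAs that shared at least 13 bases had at most 60 hippocampal and 82 cortical reads. These highest counts were those of a circle of Snhg14, a long non-coding RNA of repeated units. A circle of Dlg1, which encodes a synaptic scaffold protein, shared 11 bases and had 251 hippocampal and 274 cortical reads, and it was found in all 18 samples of each tissue. Whether reads of the linear junction of exons 16 and 17 contributed to the reads of the exons 14 to 16 circle was not tested, as linear reads were not used here.

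**Figure D4:**
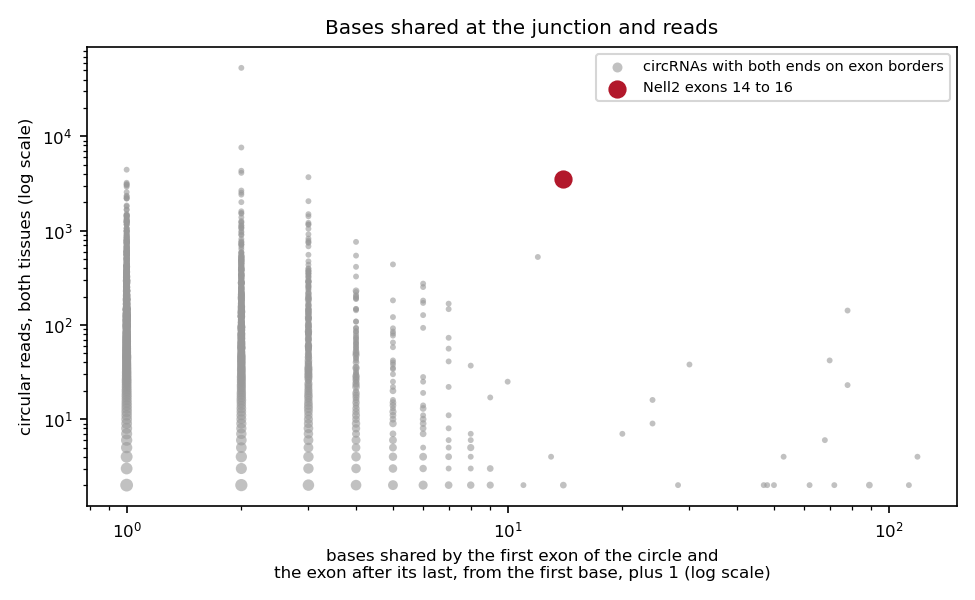
Bases shared from the first base by a circle's first exon and the exon after its last (plus 1, log scale) against circular reads in both tissues (log scale), for 20710 circRNAs; larger points stand for more circRNAs. The Nell2 exons 14 to 16 circle (red) lies at 13 shared bases, where the other circRNAs with as many have at most 82 reads in a tissue.

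All-or-none detection was rare in both tables. It was defined as at least 2 samples with reads, at least 2 at 0 and a lowest count above 0 of at least 20. Of 8468 hippocampus circRNAs with reads in at least 2 samples and 0 in at least 2, 98.9% had a lowest count of 2 or 3 reads, and 4 were all-or-none. For the frontal cortex these values were 99.1% of 7508, and again 4. With at least 500 reads in all were 92 hippocampal circRNAs, of which 2 were at 0 in at least 2 samples and 10 in a single sample. Of 75 cortical ones, 2 were at 0 in at least 2 samples and 4 in a single sample. The 2 were the same in both tissues, Nell2 exons 14 to 16 and a circRNA of Gm26917.

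The circRNA of Gm26917 (chr17:39844698-39844867) had 1328 reads in 8 hippocampus samples, between 120 and 194 in each, and 689 reads in 6 frontal cortex samples, between 75 and 178. Its samples were not those of Nell2, as 3 of the 8 and 1 of the 6 also had the Nell2 circle. The other all-or-none circRNAs given here lay close to that of Gm26917, on the opposite strand and in no annotated gene of that strand. They are therefore not separate places in the genome. The one at chr17:39845364-39845519 had 93 reads in 3 hippocampus samples and 78 in 3 frontal cortex samples. The one at chr17:39844251-39844401 had 99 reads in 2 frontal cortex samples. Circles found in a single sample were outside this definition, and 10 hippocampal and 5 cortical ones had at least 20 reads there, with 46 the highest.

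**Figure D5:**
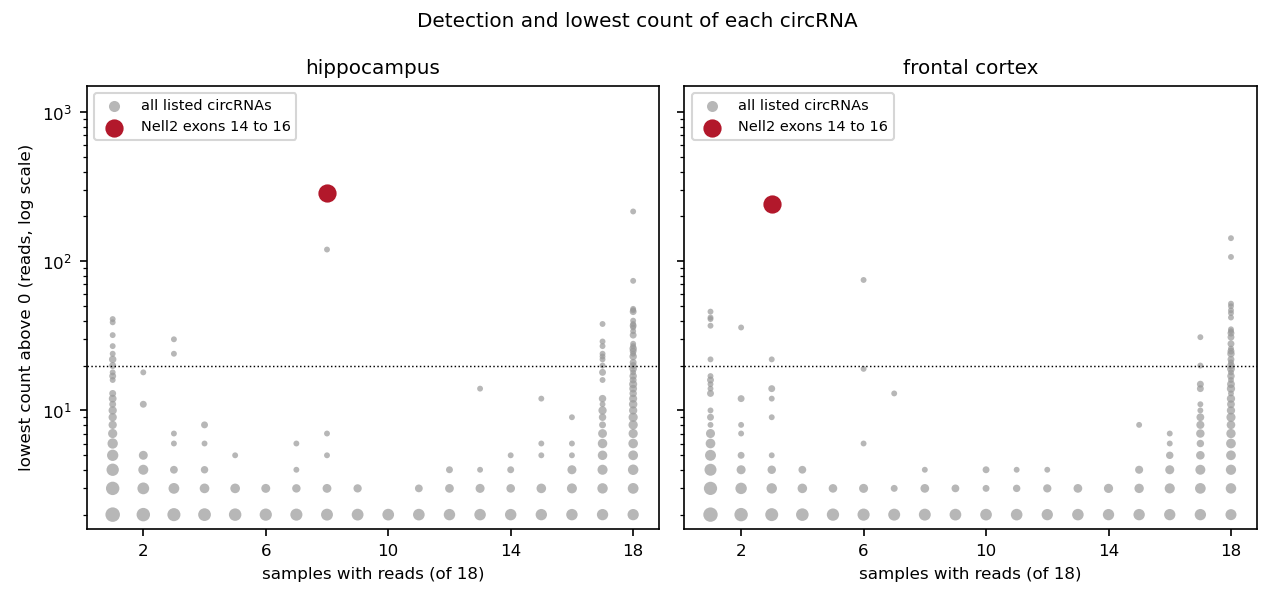
Number of samples with reads (of 18) against the lowest count above 0 (log scale) of every listed circRNA; larger points stand for more circRNAs, and the dotted line marks 20 reads. The Nell2 exons 14 to 16 circle (red) lies at 8 samples and 286 reads in the hippocampus and at 3 samples and 244 reads in the frontal cortex, apart from the row of circRNAs at 2 or 3 reads.

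The circRNAs most like the exons 14 to 16 circle over the 18 hippocampus samples were named by Spearman's rho of reads per 10000 circular reads, among 581 circRNAs with enough reads. The median rho was -0.01. Highest was a circle of Setd3 (chr12:108157754-108165172), a gene for a histidine methyltransferase of actin, with a rho of 0.84. It had 339 reads in 15 samples, and 7.43 to 16.1 reads per 10000 in the samples with the Nell2 circle against 0 to 8.77 in those without, so that the ranges overlapped. Next were a circle of Fbxw7 (rho 0.71) and one of Gabra2 (rho 0.69). All circRNAs of a sample share its library and depth, and 10 of the 18 samples are tied at 0, so that rho is a description. For the exons 11 to 14 and exons 11 to 13 circles, rho was -0.14 and -0.26, and they ranked 406 and 485 from the top.

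The comparisons between tissues and over the day were tested with edgeR's quasi-likelihood test and Benjamini-Hochberg adjustment over all circRNAs tested. Besides the exons 14 to 16 circle, 2 of the Nell2 circles had enough reads, exons 11 to 14 and exons 11 to 13, and the other 26 were not tested. The exons 14 to 16 circle was in the hippocampal fits and in the fit of both tissues, with no p reported, and in none of the fits of the frontal cortex alone, where no time point had it in more than 1 replicate. Levels are normalised reads per 10000 reads of the 710 circRNAs in the fit of both tissues. The tests within a tissue used a normalisation of that tissue alone, so levels and log2 differences can differ slightly.

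Between the hippocampus and the frontal cortex, 0 of the 2 Nell2 circles were called, against 217 of 710 circRNAs tested (30.6%), of which 117 were higher in the hippocampus and 100 lower. In hippocampus samples, exons 11 to 14 were at 8.57 ± 2.15 (SD, 18 samples), and in frontal cortex samples at 7.87 ± 3.80. The log2 difference was 0.21 (SE 0.17, edgeR adjusted p = 0.377). Exons 11 to 13 were at 5.31 ± 3.06 and 5.44 ± 3.43, with a log2 difference of -0.01 (SE 0.34, edgeR adjusted p = 1.00), a sign that turned in 23 of the other settings. The median log2 difference of all circRNAs tested was 0.02. Both Nell2 circles had an unadjusted p above 0.05, and DESeq2 also called 0 of the 2. Without the filter on low counts, 1 of 10 Nell2 circles (exons 5 to 10) was called by edgeR, against 346 of 6656 circRNAs (5.2%).

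Over the 6 time points, 0 of the 2 hippocampal circles were called, against 0 of 582 circRNAs tested (0%), and 0 of the 2 cortical circles, against 1 of 518 (0.193%). At an unadjusted p under 0.05, edgeR counted 19 hippocampal and 12 cortical circRNAs, with 0 Nell2 circles among either, and DESeq2 called 0 in both tissues. The exons 11 to 14 circle was lowest at ZT1 in the hippocampus (6.77 ± 2.51, SD, 3 replicates) and highest at ZT5 (10.7 ± 1.58). Its lowest cortical mean was at ZT21 (5.07 ± 1.93) and its highest at ZT9 (12.5 ± 5.62). The edgeR adjusted p over the time points was 0.999 and 0.996, so neither exceeded the spread between replicates. With no filter, 0 Nell2 circles were called, against 14 of 5505 hippocampal (0.254%) and 12 of 4790 cortical circRNAs (0.251%).

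Between the dark and the light phase, 0 of the 2 hippocampal circles were called, against 0 of 582 (0%), and 0 of the 2 cortical ones, against 0 of 518 (0%). The unadjusted p was under 0.05 for 28 and 16 circRNAs, with 0 Nell2 circles among them, and DESeq2 called 1 hippocampal and 0 cortical circRNAs, 0 of them from Nell2. For the exons 11 to 14 circle, the log2 difference of dark minus light was 0.06 (SE 0.20) for the hippocampus and -0.24 (SE 0.30) for the frontal cortex. For the exons 11 to 13 circle it was -0.27 (SE 0.44) and -0.24 (SE 0.49). The medians of all circRNAs tested were -0.02 and 0.02. With no filter, 0 Nell2 circles were called, against 4 of 5505 hippocampal (0.0727%) and 0 of 4790 cortical circRNAs. The hippocampal sign for exons 11 to 14 and the cortical sign for exons 11 to 13 turned under other settings.

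For a 24-h rhythm, 0 of the 2 hippocampal circles were called, against 0 of 582 (0%), and 0 of the 2 cortical ones, against 0 of 518 (0%). The unadjusted p was under 0.05 for 13 hippocampal and 25 cortical circRNAs. Of the cortical ones, 1 was the exons 11 to 14 circle, with an unadjusted edgeR p of 0.0183 and an adjusted p of 0.909. DESeq2 called 1 hippocampal and 0 cortical circRNAs, 0 of them from Nell2. Without the filter on low counts, edgeR called 614 of 5505 hippocampal (11.2%) and 521 of 4790 cortical circRNAs (10.9%), 0 of them from Nell2. The same unfiltered counts gave 14 and 12 calls over the time points. Why the rhythm fit gave more was not tested, and these calls are not read as rhythms.

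Circles of genes with related roles were counted alongside. The list held 13 genes: the paralogue Nell1, the receptors Robo1, Robo2, Robo3 and Ros1, the Robo ligands Slit1, Slit2 and Slit3, and Ntn1 with its receptors Dcc, Neo1, Unc5c and Unc5d. Circles were listed for 10 of them, 93 in all, and none for Robo3, Ros1 and Ntn1. Robo1 had the most reads (315 hippocampal, 351 cortical), followed in the hippocampus by Robo2 (192 and 169) and Dcc (167 and 66). Nell1 had 18 and 16 reads, and Slit1 had 51 hippocampal reads and was listed at 0 in frontal cortex samples. Tested were 2 of the 93, a Robo1 circle (chr16:72933213-72935786, 214 and 191 reads) and a Robo2 circle (chr16:74352551-74352877, 164 and 136 reads). In each of the 7 comparisons, 0 of the 2 were called. Of all circRNAs tested, 30.6% were called between the tissues and 0% to 0.193% in the other comparisons. With 2 circles, this does not set the list apart from the rest. Between the tissues, their log2 differences were -0.07 (SE 0.17) and 0.02 (SE 0.22), with edgeR adjusted p of 0.826 and 0.961.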

How the data were processed

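Total RNA was depleted of rRNA and sequenced by the authors, mapped to GRCm38 with BWA, and searched for back-splice junctions with CIRI2. The deposited values are raw counts of reads across each back-splice junction, per sample and not normalised, with 2 as the smallest count above 0. ZT1 replicate 3 of the hippocampus has a further column that no source used here explains; the column named like those of the other replicates was used. Groups were tissue and time point as labelled. Annotation and transcript sequences were those of GENCODE M21.

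The members and lists were chosen with earlier results of these data known. Named are the exons 14 to 16 circle, Nell2 circles with enough reads for the test or sharing an end with it, the 3 circRNAs most like it, and up to 5 all-or-none circRNAs per tissue. Values of 1 such circRNA and of 1 tissue marker are not reported here.

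CircRNAs found in at least 2 replicates of 1 time point were kept (5505 in the hippocampus, 4790 in the frontal cortex). The test was that of edgeR 4.0.16, run in R 4.3.3 (filterByExpr, TMM, quasi-likelihood test, adjusted p under 0.05), with 18 samples per tissue or all 36 in one fit. The scripts were tested on simulated data. Alternatives were total scaling, size factors of DESeq2, the test of DESeq2 1.42.0, no filter, the replicate block, the further column, removal of the exons 14 to 16 circle and leaving out each sample. Python 3.11.15, pandas 2.3.3, numpy 2.4.6 and matplotlib 3.10.9 were used. A change common to all circRNAs is lost in a normalisation to circular reads.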

Additional observations from a re-analysis of the deposited data

Results flagged for a closer look

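In each tissue, the 9 samples of a phase were searched for a sample far from the others, over 12 sets of values (the summed share of the other Nell2 circles and the levels of the 2 tested circles), and 3 such samples were found. Chance alone marks about 1 in 20 sets of normally distributed values. These 12 sets share reads and hold low counts, so the 3 are not read as more than chance gives. The summed share of the other Nell2 circles was 0.382% in frontal cortex ZT9 replicate 3, while the next highest light-phase sample had 0.123%. This sample has the lowest total of its tissue, 8107 circular reads. In the dark phase of the frontal cortex, the same share was lowest in ZT17 replicate 2, at 0.031%, where the next lowest sample had 0.0891%. ZT17 replicate 2 is one of the 3 frontal cortex samples with the exons 14 to 16 circle. The share of the exons 14 to 16 circle, which was 1.18% in frontal cortex ZT1 replicate 1 and 0 in the other 8 light-phase samples, is a description and not counted among these, as the circle was chosen for this pattern. The exons 11 to 14 circle was at 3.78 normalised reads per 10000 in hippocampus ZT13 replicate 1, where it had 2 reads, and the next lowest dark-phase sample was at 7.76. ZT13 replicate 1 has the lowest total of the hippocampus, 6754 circular reads. The part of depth in these values was not tested.

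The further column of hippocampus ZT1 replicate 3, which entered the fits only as an alternative, held 13 reads of other Nell2 circles (5 of exons 11 to 14, 4 of exons 11 to 13 and 4 of exon 17) and 0 of the exons 14 to 16 circle.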

How the results depend on the processing

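The number of hippocampus samples with the exons 14 to 16 circle stayed at 8 with ends matched within 10 bases, with the further column and with at least 5 reads required. None of these settings could have changed it. The lowest count above 0 was 286, no other circRNA lay within 10 bases of both ends, and the further column had 0. The median share of the circle moved to 1.71% over kept circRNAs and was 1.49% to 1.51% when each sample was left out. All-or-none circRNAs numbered 9 (hippocampus) and 11 (frontal cortex) with a lowest count of at least 10 reads, and 2 in each with at least 50. Without a filter on low counts, 1 Nell2 circle (exons 5 to 10) was called between the tissues (adjusted p = 0.025) among 10 tested, against 346 of 6656 circRNAs (5.2%). Over the time points, 14 of 5505 hippocampal and 12 of 4790 cortical circRNAs were then called in place of 0 and 1, between the phases 4 and 0 in place of 0 and 0, and for the rhythm 614 and 521 in place of 0 and 0, with 0 from Nell2. Every other setting and every left-out sample gave 0 Nell2 calls in all 7 comparisons. Removing the exons 14 to 16 circle tests nothing in the 3 cortical ones, whose fits did not hold it. The exons 11 to 13 log2 difference between the tissues turned to 0.017 with total scaling, 0.056 without the filter, 0.024 with the replicate block and 0.0029 without the exons 14 to 16 circle, and ranged from -0.079 to 0.186 when each sample was left out. The dark minus light difference of exons 11 to 14 in the hippocampus was -0.029 without the filter and -0.0065 to 0.13 with each sample left out. That of exons 11 to 13 in the frontal cortex was -0.43 to 0.12. The cause was not tested. The summed share of the other circles was 0.132% to 0.139% (hippocampus) and 0.0978% to 0.119% (frontal cortex) when each sample was left out.

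Deviations of same-numbered samples from their group means had a median correlation of -0.006 in the hippocampus, -0.008 in the frontal cortex and -0.008 between the tissues. At such low counts a shared mouse need not raise this correlation, so the values do not settle whether samples were paired. With the replicate block, 187 circRNAs in place of 217 were called between the tissues, 0 from Nell2. Depth limits these results, as 26 of the 29 circles had too few reads for the test.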
